A study of Mus musculus with 90 samples.

Results

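The 10 genes described here carry inflammatory and cytokine signals in mouse liver or set how strongly they act. They are the interleukin-6 receptor Il6ra, the interleukin-1 receptor Il1r1, the transcription factor Stat3, its feedback inhibitor Socs3, the NF-kappaB inhibitor Nfkbia, the nuclear IkB protein Bcl3, the C/EBP transcription factors Cebpa, Cebpb and Cebpd, and Creb3l3, which encodes CREB-H. They were picked by name for these roles, with earlier results of these data known, though not by a threshold on a measured value. They make up 10 of the 27654 gene identifiers in the count tables. RNA was sequenced from whole livers of a study asking how the glucocorticoid receptor (GR, gene Nr3c1) takes part in the liver's response to caloric restriction. The 90 polyA libraries came from 3 experiments: a time series through the day with 78 libraries, a diet experiment with 6 and a corticosterone experiment with 6.

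All mice were of the C57BL/6J strain and were given chow, and the study used adult males. In the time series, WT livers carried GR alleles flanked by loxP sites without a recombinase (GRfl/fl). The GR LKO livers carried the same alleles together with Alb-Cre, in which the albumin promoter drives Cre in hepatocytes, so the other cells of the liver keep the gene. Both genotypes were sampled every 4 h from ZT0 (lights on) to ZT20, with ZT12 at lights off. The mice were under night-restricted feeding (ctrl.) or had their intake lowered to an end point of 40% fewer calories (cal. res.). The study describes food as provided from ZT12 under both diets. Each of the 24 groups held 3 libraries, except WT livers under ctrl. at ZT8, ZT12, ZT16 and ZT20 and GR LKO livers under ctrl. at ZT8 and ZT12, which held 4. The diet experiment compared 3 cal. res. with 3 ctrl. livers of WT mice at ZT12. Its control titles carry the letters AL while their treatment label reads night-restricted feeding, and the study describes its control mice as freely fed until a last week of feeding in the dark phase alone, which both terms fit. The CORT experiment compared 3 livers of WT mice labelled with corticosterone supplementation with 3 labelled with night-restricted feeding, at ZT12. The study describes the CORT mice as injected with the hormone and their controls as injected with vehicle, which the labels do not state. Ages are not given in the labels. They number the replicates but do not say that each is a separate animal, and the p-values hold only as far as they are.

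Positions are on GRCm38, from the GENCODE annotation, and span the whole gene. The receptors lie as Il6ra (ENSMUSG00000027947) at chr3:89864059-89913196 and Il1r1 (ENSMUSG00000026072) at chr1:40225080-40317257. The STAT3 axis comprises Stat3 (ENSMUSG00000004040) at chr11:100885098-100939540 and Socs3 (ENSMUSG00000053113) at chr11:117966079-117970047. Of the IkB proteins, the annotation places Nfkbia (ENSMUSG00000021025) at chr12:55489410-55492647 and Bcl3 (ENSMUSG00000053175) at chr7:19808462-19822770. The C/EBP genes are Cebpa (ENSMUSG00000034957) at chr7:35119293-35121928, Cebpb (ENSMUSG00000056501) at chr2:167688915-167690418 and Cebpd (ENSMUSG00000071637) at chr16:15887286-15891031. CREB-H is encoded by Creb3l3 (ENSMUSG00000035041) at chr10:81084324-81098874.

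Interleukin-6 binds its receptor on hepatocytes and, through gp130 and Janus kinases, activates STAT3, which drives acute phase genes and Socs3, the inhibitor that ends the signal. Interleukin-1 acts through IL1R1 on NF-kappaB, which is held in the cytoplasm by the Nfkbia product IkB-alpha, and glucocorticoids are known to raise both this inhibitor and several of the receptors. The C/EBP factors bind the promoters of hepatic metabolic and acute phase genes, with C/EBP-alpha prevailing at rest and C/EBP-beta and C/EBP-delta rising in inflammation, while CREB-H is a membrane-bound factor of the fasted and stressed liver.

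Library depth, the sum of estimated counts, ran from 10057544 to 17089004 in the 42 ctrl. libraries of the time series (median 13427104) and from 14235473 to 20788575 in its 36 cal. res. libraries (median 17386700). In the diet experiment it ran from 36442195 to 39492146 and in the CORT experiment from 13739631 to 16077943. Levels are given as CPM, counts scaled to a common library size with trimmed mean of M values factors, as mean ± SD where a spread follows. Each diet of the time series was a count table of its own, with a separate series of library identifiers. Any library batch would go with the diet there and cannot be told apart from it, so levels are compared within a diet. No library was a copy of another of its group: among 102 pairs of libraries within groups the lowest chi-square per degree of freedom was 10.9. The label of the knockout was checked on Nr3c1. Under cal. res. the 18 WT livers had between 70.5 and 113 CPM of Nr3c1 (median 93.7) and the 18 GR LKO livers between 21.6 and 31.9 (median 25). Under ctrl. the 22 WT livers spanned 73.0 to 118 CPM (median 87.2) and the 20 GR LKO livers 16.3 to 29.0 (median 21.5). Nr3c1 was lower in GR LKO livers, without overlap, in 12 of 12 comparisons, with log2 fold changes between -1.70 and -2.06. Albumin, the chief secreted protein of hepatocytes, was the most abundant hepatocyte marker in each group.

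Known GR-induced genes served as a check on the hormone. Fkbp5, a chaperone partner of GR, had 64.3 ± 22.1 CPM under ctrl. and 331 ± 40.7 under cal. res. in the diet experiment (log2 fold change 2.36, SE 0.24, adjusted p = 0.000490). With CORT its level was 236 ± 51.0 CPM against 38.1 ± 16.7 (log2 fold change 2.63, SE 0.35, adjusted p = 0.00797). The clock gene Per1 and the anti-inflammatory Tsc22d3 rose in both experiments as well, by log2 1.02 and 1.92 with the diet and by 2.04 and 1.48 with CORT. After GR loss under cal. res. at ZT12, Fkbp5 (-2.84), Per1 (-1.22) and Tsc22d3 (-1.86) were lower than in WT.

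The diet experiment asked what caloric restriction does to WT liver at lights off. The receptors of interleukin-6 and interleukin-1 rose, as did Stat3, Nfkbia, Cebpb and Cebpd, while Cebpa and Creb3l3 fell. By the edgeR quasi-likelihood test with Benjamini-Hochberg adjustment over all genes tested, at 0.05, 6 of the 10 genes were higher and 2 lower. The background was wide: 6155 of 13062 genes tested (47.1%) passed, so changes were common among all genes. The median log2 fold change of the 10 genes was 0.67.

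Il6ra, the receptor that lets hepatocytes sense interleukin-6, had 12.2, 18.9 and 16.3 CPM in the ctrl. livers and 50.2, 48.1 and 45.5 CPM in the cal. res. livers. Every cal. res. liver lay far above every ctrl. liver (log2 fold change 1.60, SE 0.15, adjusted p = 0.000397; 3.04-fold). Il1r1 had 91.4, 107 and 86.3 CPM under ctrl. and 174, 114 and 118 under cal. res. The groups did not overlap, but the gap between the highest ctrl. liver and the lowest cal. res. liver was narrow (log2 fold change 0.51, SE 0.18, adjusted p = 0.0472). Left out 1 at a time, 4 libraries took the adjusted p of Il1r1 above 0.05: cal. res. replicate 1 (0.0578), ctrl. replicate 1 (0.130), ctrl. replicate 2 (0.0614) and ctrl. replicate 3 (0.133).

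Stat3 had 87.0, 98.1 and 83.0 CPM under ctrl. and 125, 161 and 131 under cal. res., again without overlap (log2 fold change 0.64, SE 0.12, adjusted p = 0.00407). Its inhibitor Socs3 had 8.77, 8.51 and 5.06 CPM and 8.37, 13.8 and 16.1 CPM. Here cal. res. replicate 1 lay below the highest ctrl. liver, and the difference did not pass (log2 fold change 0.78, adjusted p = 0.0580); without that liver it was 1.02 (adjusted p = 0.0124), and DESeq2 called Socs3 on all 6 libraries, where it called 5984 of 15027 genes (39.8%) in all. Nfkbia, which holds NF-kappaB inactive, had 20.9, 14.9 and 19.3 CPM under ctrl. and 40.7, 42.6 and 41.9 under cal. res. All 3 restricted livers stood together, well clear of the controls (log2 fold change 1.184, SE 0.12, adjusted p = 0.000522; 2.27-fold). Bcl3, a nuclear partner of NF-kappaB p50 and p52, had 9.27, 8.85 and 10.7 CPM and 7.37, 9.93 and 5.84 CPM, and did not pass (log2 fold change -0.32, adjusted p = 0.214). Without cal. res. replicate 2 its value was -0.54 (adjusted p = 0.0403).

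Among the C/EBP genes, Cebpa, the factor of the resting differentiated hepatocyte, had 68.2, 65.6 and 69.8 CPM under ctrl. and 40.5, 55.7 and 37.2 under cal. res. The ctrl. livers were tight and all above the restricted ones (log2 fold change -0.61, SE 0.15, adjusted p = 0.0124). Cebpb, which is induced by fasting and by inflammation, had 35.2, 28.9 and 25.2 CPM and 45.9, 47.9 and 52.5 CPM, with every restricted liver higher (log2 fold change 0.71, SE 0.13, adjusted p = 0.00367). Cebpd, the most inflammation-responsive of these factors, had 3.80, 3.64 and 3.09 CPM and 8.34, 8.01 and 6.85 CPM. Its groups were also separate (log2 fold change 1.14, SE 0.14, adjusted p = 0.000888; 2.20-fold). Creb3l3 had 354, 343 and 347 CPM under ctrl. and 215, 218 and 254 under cal. res. All ctrl. livers lay above all restricted ones (log2 fold change -0.60, SE 0.08, adjusted p = 0.00156).

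The same diets can be set against each other in WT livers of the time series at ZT12, where diet and library batch cannot be told apart. There the log2 differences were 0.81 for Il6ra, 0.98 for Il1r1, 0.41 for Stat3 and -0.32 for Creb3l3. Nfkbia had 0.22 and was not called, while Bcl3 had -1.77 and was. Cebpa had -3.22, far from its value in the diet experiment. For Cebpb (-0.90), Cebpd (-1.02) and Socs3 (-1.45) the sign was opposite to the diet experiment, with Cebpb and Cebpd called in both and Socs3 in neither. All genes called there were 4398 of 11550 genes (38.1%), and 8 of the 10 members.

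Lists of related genes moved both ways under the diet, as did all genes, of which 6155 of 13062 (47.1%) were called. Of 22 other JAK-STAT genes tested, 8 rose and 5 fell (median log2 fold change 0.05, against 0.00 over all genes). The interleukin-22 receptor Il22ra1 rose by 3.81 and the oncostatin M receptor Osmr by 1.37, and the growth hormone effector Stat5b by 0.48. Among those lower were the STAT5 feedback inhibitor Cish (-1.22) and the leukaemia inhibitory factor receptor Lifr (-1.18). Of 28 interleukin-1 and NF-kappaB genes, 6 rose and 3 fell (median -0.01), with the NF-kappaB subunit Rel at 1.04, the kinase adaptor Tab2 at 0.85 and Tab1 at -1.12. Of 13 relatives of the C/EBP and CREB-H factors, 7 rose and 3 fell (median 0.28), among them the stress factors Ddit3 (1.20) and Atf6 (1.05) and the myeloid family member Cebpe (-2.00). Among 22 acute phase genes, 8 rose and 5 fell (median 0.19). The LPS-binding protein Lbp rose (log2 fold change 1.04, SE 0.19, adjusted p = 0.00415), whereas the serum amyloid gene Saa1 fell (log2 fold change -2.23, SE 0.36, adjusted p = 0.00254). Of 6 known CREB-H targets, Hamp (0.95), which encodes hepcidin and is in the acute phase list too, and the triglyceride regulator Apoa5 (0.50) rose and Cidec (-1.73), a lipid droplet protein, fell (median 0.13).

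Cell type markers moved with the diet too. Of 7 hepatocyte markers 3 rose, and their summed level was 84249, 84886 and 89662 CPM in the ctrl. livers and 152443, 154291 and 157954 CPM in the cal. res. livers, with Alb the most abundant. Of 8 Kupffer cell markers only Cd5l was called (-0.50), and the sums were 133, 113 and 142 CPM and 85.9, 137 and 125 CPM, led by Clec4f. Of 6 endothelial markers 5 rose, from sums of 119.8, 154 and 155 CPM to 209, 208 and 242 CPM, led by Kdr in the ctrl. and Clec4g in the cal. res. livers. Of 6 stellate cell markers 2 rose and 1 fell, with sums of 217, 226 and 181 CPM and 297, 261 and 299 CPM, led by Dcn. Among 2 neutrophil and monocyte markers tested, Cxcr2 rose (1.47), with low sums of 3.23, 3.83 and 4.14 CPM and 6.14, 5.97 and 7.22 CPM and Retnlg at 0 in the restricted livers. Of 4 lymphocyte markers tested Cd79a fell (-3.78), and of 4 bile duct markers tested Sox9 (1.24) and Krt19 (1.00) rose. The lymphocyte sums averaged 2.80 and 1.20 CPM, led by Cd79a and Trbc2, and the bile duct sums 47.7 and 45.0 CPM, led by Spp1 with Epcam at 0. In whole liver, fewer cells of a type and less RNA per cell cannot be told apart, and the part of these markers in the results was not tested.

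The CORT experiment asked what the hormone does without the diet. Il1r1, Il6ra, Stat3, Nfkbia, Cebpb and Cebpd rose and Cebpa fell, so 7 of the 10 genes passed (6 higher, 1 lower). The background was 935 of 11523 genes tested (8.11%), far smaller than that of the diet experiment. The median log2 fold change was 1.20 over the 10 genes and -0.01 over all genes. DESeq2 called 7 members, the same genes, against 1317 of 11431 genes (11.5%) given an adjusted p. The count over all genes was 446 without CORT replicate 1, 1008 without CORT replicate 2 and 395 without CORT replicate 3, and 421, 206 and 438 without ctrl. replicates 1, 2 and 3.

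Il1r1 had 27.3, 25.4 and 33.8 CPM in the controls and 127, 236 and 234 CPM with CORT. All treated livers were several times higher, with treated replicate 1 the lowest of them (log2 fold change 2.79, SE 0.26, adjusted p = 0.00223; 6.91-fold). Il6ra had 20.3, 12.9 and 9.05 CPM in the controls and 39.3, 72.8 and 36.6 CPM with CORT. The groups did not overlap, and treated replicate 2 stood apart at the top (log2 fold change 1.82, SE 0.36, adjusted p = 0.0269). The adjusted p of Il6ra went above 0.05 without any of 3 libraries: CORT replicate 1 (0.0534), ctrl. replicate 2 (0.115) and ctrl. replicate 3 (0.0799).

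Stat3 had 74.9, 79.8 and 83.6 CPM in the controls and 139, 179.8 and 172 CPM with CORT, a clear separation (log2 fold change 1.04, SE 0.12, adjusted p = 0.00456; 2.06-fold). Socs3 had 11.1, 5.81 and 3.58 CPM and 6.50, 13.6 and 11 CPM, and did not pass (log2 fold change 0.61, adjusted p = 0.425). For Nfkbia the values were 17.0, 17.6 and 23.1 CPM and 56.3, 43.9 and 48.5 CPM. Every treated liver had far more of this inhibitor than any control (log2 fold change 1.37, SE 0.15, adjusted p = 0.00456; 2.58-fold). Bcl3, at 32.2, 22.9 and 16.6 CPM and 28.3, 24.8 and 34.3 CPM, did not pass (log2 fold change 0.29, adjusted p = 0.502).

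Cebpb had 49.9, 38.3 and 33.2 CPM in the controls and 175, 159 and 163 CPM with CORT. The treated livers were close to each other and well above the controls (log2 fold change 2.04, SE 0.16, adjusted p = 0.00128; 4.1-fold). Cebpd had 2.69, 3.41 and 2.06 CPM and 17.1, 19.5 and 15.5 CPM, a still wider gap (log2 fold change 2.67, SE 0.20, adjusted p = 0.00128; 6.35-fold). Cebpa went the other way, from 399.8, 365 and 397 CPM to 248, 207 and 273 CPM. All treated livers lay below all controls (log2 fold change -0.68, SE 0.12, adjusted p = 0.0200). The adjusted p of Cebpa exceeded 0.05 without any of 4 libraries: CORT replicate 1 (0.0624), ctrl. replicate 1 (0.0712), ctrl. replicate 2 (0.0720) and ctrl. replicate 3 (0.0616). Creb3l3, with 257, 259 and 284 CPM and 274, 260.5 and 299 CPM, showed a log2 fold change of 0.06 (adjusted p = 0.755).

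**Figure D1:**
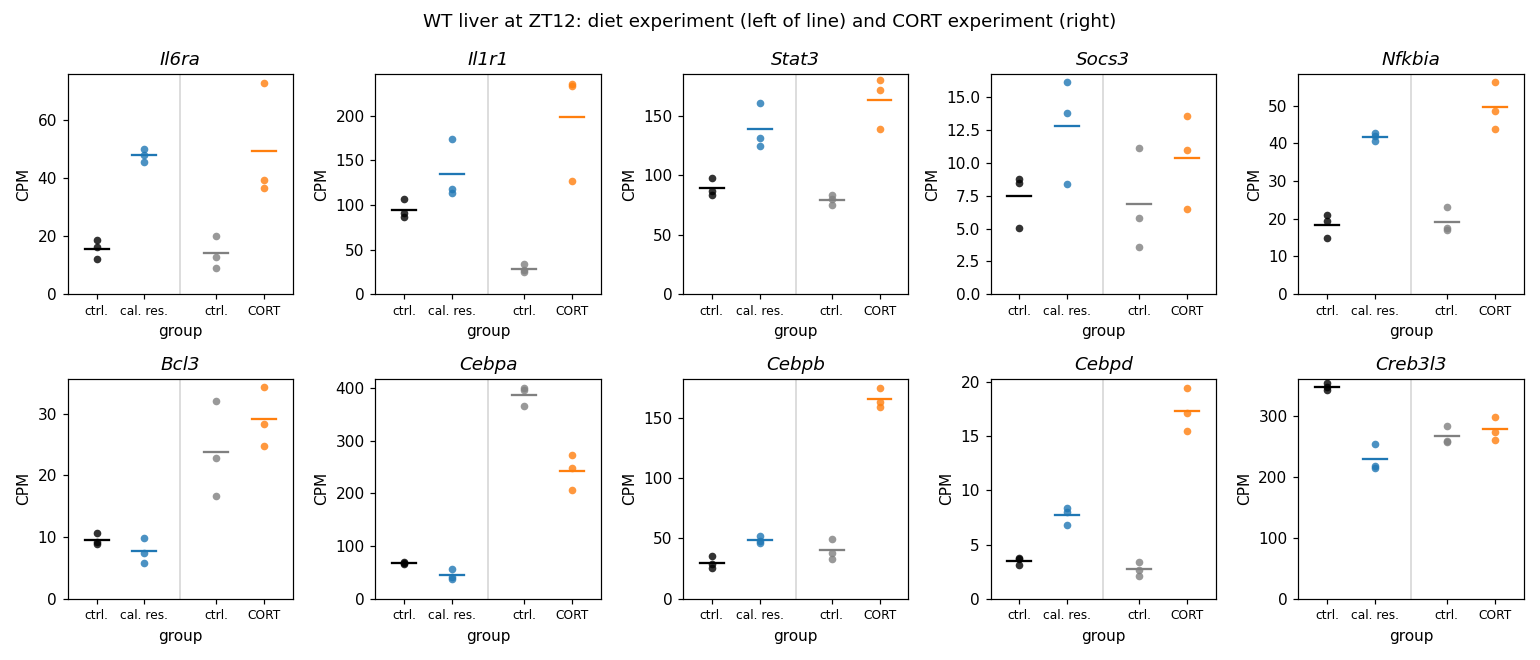
Level of each of the 10 genes (vertical axis, CPM) in each WT liver at ZT12, with the diet experiment left of the grey line and the CORT experiment right of it; points are libraries, bars are group means of 3 libraries. Il1r1 averaged 199 CPM with CORT and 28.8 in its controls, and Creb3l3 averaged 229 CPM under cal. res. and 348 under ctrl.

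Acute phase genes, whose products the liver secretes in inflammation, rose broadly with CORT: 17 of 22 tested were higher and 0 lower, where 515 rose and 420 fell of 11523 genes (8.11% called; list median log2 fold change 1.11, against -0.01 over all genes). Lipocalin Lcn2 rose from 1.52 ± 0.755 to 193 ± 72.5 CPM (log2 fold change 6.97, SE 0.42, adjusted p = 0.000916). The serum amyloid genes Saa2 (log2 fold change 6.15, SE 0.57, adjusted p = 0.00222) and Saa1 (log2 fold change 5.20, SE 0.34, adjusted p = 0.00109) followed. Of 26 interleukin-1 and NF-kappaB genes, 4 rose and 2 fell (median 0.17), with the IkB family member Nfkbiz at 0.91, Rel at 0.84, the TNF receptor Tnfrsf1a at 0.38, the receptor kinase Irak2 at -0.66 and the subunit Nfkb1 at -0.43. In the JAK-STAT list 0 of 21 rose and 2 fell, Stat5a (-0.66) and Stat2 (-0.62), with a median of -0.05. Of 12 bZIP relatives tested only the stress factor Atf4 was called (-0.49; list median 0.03). The 5 CREB-H targets tested included 0 called by edgeR (median -0.02).

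Cell type markers were read in the CORT experiment as well. Of 7 hepatocyte markers 1 rose, Hnf4a (0.84), with summed levels of 99862, 94187 and 99168 CPM in the controls and 97644, 98730.3 and 88834 CPM with CORT, led by Alb. Of 8 Kupffer cell markers, Marco (1.58) and Cd5l (0.77) rose, and the sums were 70.0, 87.2 and 92.7 CPM and 98.8, 139 and 114 CPM, without overlap and led by Clec4f. The endothelial marker Kdr (-0.62; 1 of 6), the stellate cell marker Lrat (-1.34; 1 of 6) and the bile duct marker Sox9 (-1.16; 1 of 4 tested) fell. Their lists averaged 105 and 85.9 CPM (led by Clec4g), 146 and 136 CPM (led by Dcn), and 33.4 and 32.5 CPM (led by Spp1, Epcam at 0), controls before CORT. The endothelial sums were 95.2, 98.3 and 120 CPM in the controls and 78.2, 86.7 and 92.9 CPM with CORT, also without overlap. Neutrophil and monocyte markers summed to 1.67, 2.75 and 3.16 CPM and 4.36, 5.82 and 4.43 CPM, again without overlap, with 0 of 3 tested called and Ly6c2 at 0 in both groups. Of the lymphocyte markers 0 of 6 had counts enough for the test, with mean sums of 1.95 and 0.625 CPM. The part of the markers in these results was not tested.

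Loss of GR in hepatocytes was compared with WT at each time point within a diet, to learn what the receptor contributes. Under cal. res. at ZT12 both receptor genes, Cebpb and Nfkbia were lower in GR LKO livers and Cebpa was higher. That made 1 higher and 4 lower of the 10 genes, against a background of 1795 of 11759 genes tested (15.3%). At ZT8 Il6ra, Il1r1, Nfkbia and Cebpb were lower, 4 of 10 against 308 of 12070 genes tested (2.55%). Il6ra was lower at ZT16, 1 of 10 against 541 of 11905 genes tested (4.54%), and Il1r1 at ZT20, 1 of 10 against 178 of 12076 genes tested (1.47%). With 1 library left out the ZT12 count over all genes was 1193, 1137 and 899 without GR LKO replicates 1 to 3 and 1329, 1099 and 1032 without WT replicates 1 to 3. The ZT8 count became 56, 77 and 65 without GR LKO replicates 1 to 3 and 244, 315 and 171 without WT replicates 1 to 3, and that of ZT16 became 346, 307 and 236 without GR LKO replicates 1 to 3 and 234, 339 and 329 without WT replicates 1 to 3. At ZT20 it was 194, 82 and 149 without GR LKO replicates 1 to 3 and 18, 22 and 16 without WT replicates 1 to 3.

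DESeq2 called the same members at ZT8, against 690 of 13559 genes (5.09%) given an adjusted p, and at ZT12, against 2071 of 12521 genes (16.5%). It added Il1r1 at ZT16, making 2 of 10 against 929 of 12344 genes (7.53%), and Il6ra at ZT20, making 2 of 10 against 663 of 13493 genes (4.91%). A fit over all libraries of the diet added Stat3 and lost Cebpb at ZT8, so 4 of 10 were called against 724 of 13041 genes (5.55%). It added Il6ra at ZT0 (1 of 10, against 169 of 13041 genes (1.3%)), Il1r1 and Il6ra at ZT4 (2 of 10, against 358 of 13041 genes (2.75%)) and Il6ra at ZT20 (2 of 10, against 1127 of 13041 genes (8.64%)). Without the filter on low counts Il1r1 was called at ZT4 (1 of 10, against 97 of 17233 genes (0.563%)) and Il6ra was added at ZT20 (2 of 10, against 196 of 17197 genes (1.14%)).

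At ZT0 edgeR called 0 of the 10 genes, where it called 61 of 12140 genes tested (0.502%) in all. At ZT0 also, 2 members had an unadjusted p under 0.05, against 1606 of 12140 genes (13.2%), and DESeq2 called 0, against 439 of 13176 genes (3.33%). The ZT0 count was 103, 10 and 8 without GR LKO replicates 1 to 3 and 21, 11 and 1 without WT replicates 1 to 3. At ZT4 edgeR called 0 members against 83 of 12025 genes tested (0.69%), with 6 at an unadjusted p under 0.05, against 1755 of 12025 genes (14.6%), and 2 called by DESeq2 (Il1r1 and Il6ra), against 436 of 13513 genes (3.23%). The ZT4 count was 31, 13 and 37 without GR LKO replicates 1 to 3 and 23, 16 and 127 without WT replicates 1 to 3. At that time Il1r1 had 55.2, 66.2 and 48.0 CPM in WT and 18.7, 30.6 and 27.4 in GR LKO livers (log2 fold change -1.14, adjusted p = 0.0602), and Il6ra 16.4, 15.0 and 17.0 CPM and 11, 8.72 and 8.40 CPM (log2 fold change -0.78, adjusted p = 0.0590). Neither gene's groups overlapped.

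Il1r1 showed the widest gap. At ZT12 under cal. res. it had 190.4, 163 and 185 CPM in WT livers and 22.3, 13.1 and 18.0 CPM in GR LKO livers. Every WT liver was many times above every GR LKO liver (log2 fold change -3.34, SE 0.19, adjusted p = 0.000178; 10.1-fold lower in GR LKO livers). At ZT8 the values were 49.1, 144 and 58.9 CPM and 17.6, 15.2 and 19.8 CPM. There WT replicate 2 stood far above the rest of its group, and the groups did not overlap (log2 fold change -2.26, SE 0.40, adjusted p = 0.0351). Without WT replicate 2 the log2 fold change at ZT8 was -1.62 (adjusted p = 0.00468), and the call was lost without any of these: GR LKO replicate 1 (0.146), GR LKO replicate 2 (0.138), GR LKO replicate 3 (0.130) and WT replicate 3 (0.0606). At ZT20 Il1r1 had 35.1, 25.8 and 29.8 CPM and 15.9, 15.1 and 14.9 CPM, separate again but by less (log2 fold change -0.96, SE 0.13, adjusted p = 0.0212). That call was lost without GR LKO replicate 2 (0.0663), GR LKO replicate 3 (0.0513), WT replicate 1 (0.0899) and WT replicate 3 (0.103). At ZT16 Il1r1 had 20.9, 24.0 and 23.9 CPM and 17.4, 10.2 and 13.0 CPM (log2 fold change -0.74, adjusted p = 0.0717), and -0.97 without GR LKO replicate 1 (adjusted p = 0.0256). At ZT0 it had 28.9, 34.0 and 19.6 CPM and 17.4, 19.0 and 18.0 CPM.

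Il6ra at ZT8 under cal. res. had 25.4, 29.2 and 27.5 CPM in WT livers and 10.4, 10.5 and 11.3 CPM in GR LKO livers. Both groups were tight and far apart (log2 fold change -1.35, SE 0.09, adjusted p = 0.00109; 2.54-fold lower in GR LKO livers). At ZT12 it had 51.6, 39.8 and 48.6 CPM and 17.6, 18.5 and 22.9 CPM. The WT livers were at their highest of the day and again all above the GR LKO livers (log2 fold change -1.25, SE 0.14, adjusted p = 0.00199). At ZT16 the values were 14.8, 17.7 and 14.8 CPM and 9.07, 9.44 and 10.1 CPM, lower overall but still apart (log2 fold change -0.71, SE 0.12, adjusted p = 0.0193). The ZT16 call was lost without GR LKO replicate 1 (0.0618), GR LKO replicate 2 (0.0600), GR LKO replicate 3 (0.0541), WT replicate 1 (0.0538) and WT replicate 2 (0.0504). At ZT20 Il6ra had 19.7, 20.2 and 18.8 CPM and 13.2, 8.34 and 10.1 CPM (log2 fold change -0.87, adjusted p = 0.0610). It was called without GR LKO replicate 1 (-1.07, adjusted p = 0.0254). That library had the highest sums of Kupffer cell (278, 101 and 94.7 CPM), stellate cell (470.0, 278 and 258 CPM) and lymphocyte markers (8.34, 1.98 and 1.64 CPM) in its group. The same held for neutrophil and monocyte (7.29, 4.61 and 3.73 CPM), bile duct (105, 87.7 and 50.2 CPM) and endothelial markers (220, 207 and 195 CPM). Its hepatocyte sum was the lowest of the group (105298, 131220 and 113732 CPM). At ZT0 the values were 10.1, 16.2 and 17.6 CPM and 9.76, 9.91 and 8.32 CPM.

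Nfkbia at ZT8 had 34.1, 34.8 and 30.0 CPM in WT livers under cal. res. and 23.6, 22.5 and 22.3 CPM in those without hepatocyte GR. The gap was small next to the level but free of overlap (log2 fold change -0.53, SE 0.09, adjusted p = 0.0252). At ZT12 it had 41.9, 36.2 and 39.9 CPM and 26.8, 27.0 and 31.9 CPM, with the highest GR LKO liver close below the lowest WT liver (log2 fold change -0.46, SE 0.10, adjusted p = 0.0259). Both calls were lost without any 1 of several libraries, given here with the adjusted p without each. At ZT8 these were GR LKO replicate 1 (0.0891), GR LKO replicate 2 (0.0915), GR LKO replicate 3 (0.118), WT replicate 1 (0.0595) and WT replicate 2 (0.0542). At ZT12 they were GR LKO replicate 1 (0.0804), GR LKO replicate 2 (0.0789), WT replicate 1 (0.0652) and WT replicate 3 (0.0775). Over all alternative runs the log2 fold change of Nfkbia stayed between -0.59 and -0.49 at ZT8 and between -0.55 and -0.41 at ZT12. Stat3 was lower on average in GR LKO livers in all 6 comparisons, as were 1434 of 11300 genes (12.7%) tested in each, by a log2 fold change of at most -0.50, and none passed; in the fit over all libraries of the diet it passed at ZT8 (log2 fold change -0.51). Socs3 differed by -0.95 to 0.48 and Bcl3 by -0.65 to 0.44, without a call. In WT livers at ZT8, replicate 2 had 21.0 CPM of Socs3 and 176 of Stat3, the highest of its group for both, as it was for Il1r1. That library also had the highest sums of Kupffer cell markers (134, 313 and 185 CPM), neutrophil and monocyte markers (3.69, 9.21 and 2.98 CPM) and bile duct markers (45.2, 90.4 and 43.8 CPM) in its group. It was highest there for endothelial (158, 171 and 164 CPM) and stellate cell markers (192, 243 and 218 CPM) too. For lymphocyte (1.06, 1.26 and 2.51 CPM) and hepatocyte markers (134713, 116235 and 110679 CPM) it was not.

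Cebpa under cal. res. at ZT12 had 15.9, 17.1 and 19.2 CPM in WT livers and 43.6, 47.0 and 40.7 CPM in GR LKO livers. The GR LKO livers were all higher, with a wide margin (log2 fold change 1.33, SE 0.10, adjusted p = 0.000505; 2.51-fold). Cebpb had 24.9, 37.4 and 38.5 CPM in WT livers at that time, against 16.6, 15.8 and 17.1 CPM in GR LKO livers. Here all WT livers were higher, replicate 1 least so (log2 fold change -1.03, SE 0.16, adjusted p = 0.00781). At ZT8 Cebpb had 16.3, 17.3 and 17.5 CPM and 10.1, 11.3 and 8.87 CPM, without overlap (log2 fold change -0.75, SE 0.11, adjusted p = 0.0170). The ZT8 call was lost without GR LKO replicate 1 (0.0864), GR LKO replicate 3 (0.0681) and WT replicate 3 (0.0620), and in a fit over all libraries of the diet, where the log2 fold change was -0.76. Cebpd at ZT12 had 2.24, 3.62 and 2.48 CPM and 1.10, 1.51 and 1.59 CPM (log2 fold change -0.99, adjusted p = 0.0617), and did not pass at any time point. Creb3l3 differed by log2 -0.11 to 0.28 over the day, without a call.

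In the lists of related genes under cal. res. at ZT12, 9 of 22 acute phase genes fell in GR LKO livers and 1 rose, where 873 rose and 922 fell of 11759 genes (15.3% called; list median log2 fold change -0.33, against 0.00 over all genes). Haptoglobin Hp (log2 fold change -1.16, SE 0.19, adjusted p = 0.00912), Lbp (-0.95) and Lcn2 (-2.15) fell, and the orosomucoid gene Orm2 rose (1.45). Of 22 JAK-STAT genes, Il10rb was higher (0.73) and Il22ra1 lower (-2.08), with a median of -0.01. Of 26 interleukin-1 and NF-kappaB genes, Irak2 (0.66) and Tnfrsf1a (0.51) were higher and Il1rap (-0.54), the partner chain of IL1R1, was lower (median -0.05). Among 12 bZIP relatives Cebpe was higher (1.15) and Creb1 (-0.47) and Creb3 (-0.42) lower (median -0.05). Of 6 CREB-H targets the apolipoprotein gene Apoa4 was lower (log2 fold change -2.33, SE 0.22, adjusted p = 0.00113; list median 0.16).

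Markers of other cells moved with GR loss under cal. res. at ZT12. Of 8 Kupffer cell markers 4 were higher and 0 lower, among them Clec4f (1.11), Cd5l (1.10) and Csf1r (0.99). Their sums were 45.3, 73.1 and 52.6 CPM in WT livers, against 126, 100.5 and 128 CPM in GR LKO livers, led by Clec4f. Of 7 hepatocyte markers 4 were lower, Apoa1 (-1.32), Cps1 (-0.79) and Hnf4a (-0.51) the most. Hepatocyte sums were 160672, 161927 and 166375 CPM and 121165, 128436 and 111084 CPM, led by Alb. Of 6 endothelial markers, Lyve1 (1.06) and Oit3 (0.36) were higher, with sums of 172, 162 and 191 CPM and 224, 210.4 and 236 CPM, led by Clec4g. Of 2 neutrophil and monocyte markers tested Csf3r was higher (1.37), from sums of 2.01, 1.95 and 1.37 CPM to 3.82, 2.60 and 2.83 CPM, with S100a9 and Retnlg at 0 in WT and Ly6c2 at 0 in GR LKO livers. Stellate cell markers (0 of 6 called) summed to 252 and 229 CPM, led by Dcn. Bile duct markers summed to 28.9 and 31.8 CPM, led by Spp1, with Sox9 lower (-1.64; 1 of 3 tested) and Epcam at 0. Lymphocyte markers, 0 of 6 tested, summed to 0.554 and 0.977 CPM. Their part in the differences of Il1r1, Il6ra, Cebpa, Cebpb and Nfkbia at ZT12 was not tested.

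**Figure D2:**
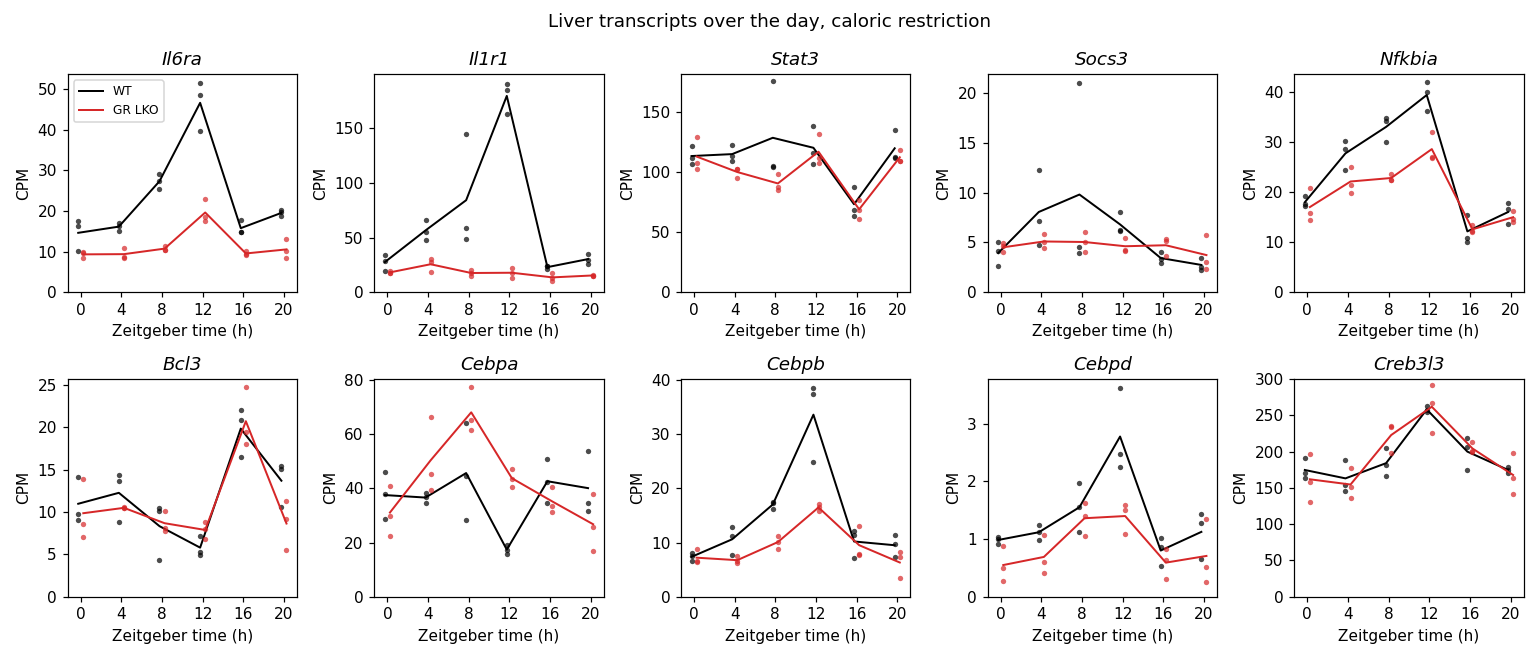
Level of each of the 10 genes (vertical axis, CPM) over zeitgeber time (horizontal axis, h) under cal. res.; points are libraries, lines join group means, black is WT and red is GR LKO, with 3 libraries per point in time. Il1r1 averaged 179 CPM in WT livers at ZT12, against 17.8 CPM in GR LKO livers.

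The same comparison was made under ctrl. There Il1r1 was lower in GR LKO livers at ZT8 and ZT12, Cebpd at ZT12, Il6ra and Nfkbia at ZT16, and Socs3 was higher at ZT16. The counts were 0 higher and 1 lower of 10 at ZT8 against 166 of 11582 genes tested (1.43%), 0 higher and 2 lower at ZT12 against 238 of 11428 genes tested (2.08%), and 1 higher and 2 lower at ZT16 against 232 of 11723 genes tested (1.98%). With 1 library left out the count over all genes at ZT8 was 97, 101, 101 and 105 without GR LKO replicates 1 to 4 and 56, 71, 80 and 160 without WT replicates 1 to 4. At ZT12 the count was 144, 162, 183 and 165 without GR LKO replicates 1 to 4 and 199, 137, 141 and 191 without WT replicates 1 to 4, and at ZT16 104, 84 and 88 without GR LKO replicates 1 to 3 and 147, 93, 183 and 108 without WT replicates 1 to 4. DESeq2 called 1 of the 10 genes at ZT8, against 362 of 13983 genes (2.59%) given an adjusted p. At ZT12 it called 5, with Il6ra, Cebpa and Cebpb added, against 570 of 13210 genes (4.31%), and at ZT16 5, with Cebpa and Cebpb added, against 634 of 12484 genes (5.08%).

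At the other times edgeR called 0 of the 10 genes. The background was 63 of 11749 genes tested (0.536%) at ZT0, where 3 members had an unadjusted p under 0.05, against 1798 of 11749 genes (15.3%), and DESeq2 called 1 (Il1r1), against 411 of 12119 genes (3.39%); the edgeR count was 9, 14 and 3 without GR LKO replicates 1 to 3 and 4, 3 and 81 without WT replicates 1 to 3. At ZT4 it was 23 of 11817 genes tested (0.195%), with 2 members at an unadjusted p under 0.05, against 1152 of 11817 genes (9.75%), and 0 by DESeq2, against 191 of 13053 genes (1.46%); the edgeR count was 7, 12 and 13 without GR LKO replicates 1 to 3 and 1, 2 and 2 without WT replicates 1 to 3. At ZT20 it was 50 of 11906 genes tested (0.42%), with 4 members at an unadjusted p under 0.05, against 1346 of 11906 genes (11.3%), and 2 by DESeq2 (Il1r1 and Socs3), against 298 of 12937 genes (2.3%); the edgeR count was 48, 13 and 23 without GR LKO replicates 1 to 3 and 17, 12, 32 and 23 without WT replicates 1 to 4.

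Il1r1 at ZT12 under ctrl. had 48.0, 93.0, 83.0 and 136 CPM in WT livers and 15.2, 20.9, 13.4 and 13.7 CPM in GR LKO livers. The WT livers varied widely, yet the lowest of them was above every GR LKO liver (log2 fold change -2.51, SE 0.30, adjusted p = 0.00311; 5.68-fold lower in GR LKO livers). At ZT8 it had 28.4, 28.3, 29.8 and 25.4 CPM and 17.0, 18.8, 16 and 18.8 CPM, a smaller and very even gap (log2 fold change -0.66, SE 0.08, adjusted p = 0.00489). The ZT8 call was lost in a fit over all libraries of the diet, with a log2 fold change of -0.66 and 36 of 12834 genes (0.281%) called in all. Over both diets, Il1r1 was lower in GR LKO livers without overlap in 12 of 12 comparisons, of which 5 passed, and Il6ra was lower on average in 12 and without overlap in 9, of which 4 passed; percent called in the single comparisons ran from 0.195% to 15.3%. Lower without overlap in all 12 were 10 of 10866 genes (0.092%) tested in each, and 9 or more times 91 of 10866 genes (0.837%). Lower on average in all 12 were 463 of 10866 genes (4.26%). Il6ra at ZT16 under ctrl. had 19.2, 23.7, 9.27 and 18.1 CPM in WT livers, against 6.38, 5.57 and 6.46 CPM in GR LKO livers, with WT replicate 3 nearest to the knockout (log2 fold change -1.51, SE 0.29, adjusted p = 0.0425). That call was lost without GR LKO replicate 1 (0.126), GR LKO replicate 2 (0.147), GR LKO replicate 3 (0.120), WT replicate 1 (0.0860), WT replicate 2 (0.0937) and WT replicate 4 (0.0948). WT replicate 3 was highest in its group for Kupffer cell (41.1, 64.2, 102 and 71.3 CPM), stellate cell (206, 142, 211 and 181 CPM) and bile duct markers (32.2, 33.4, 39.8 and 30.2 CPM). It was lowest there for endothelial (106, 109, 102 and 106 CPM) and lymphocyte markers (2.38, 1.48, 0.450 and 0.870 CPM). For hepatocyte markers and for neutrophil and monocyte markers it was neither. At ZT12 Il6ra had 27.4, 37.7, 21.6 and 18.5 CPM and 8.61, 7.44, 6.95 and 22.7 CPM (log2 fold change -1.20, adjusted p = 0.221). GR LKO replicate 4 lay inside the WT range, and without it the log2 fold change was -1.77 (adjusted p = 0.0160). That library had the highest sums of endothelial (80.2, 93.6, 75.8 and 117 CPM), stellate cell (131, 120.4, 105 and 172 CPM) and bile duct markers (31.6, 35.7, 27.2 and 49.6 CPM) in its group. It was also highest there for hepatocyte (68673, 65565, 72620 and 84145 CPM) and Kupffer cell markers (54.6, 78.3, 60.1 and 79.1 CPM).

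Socs3 at ZT16 under ctrl. had 4.03, 4.63, 6.23 and 3.76 CPM in WT livers and 12.5, 14.2 and 10.1 CPM in GR LKO livers. All 3 GR LKO livers were well above all 4 WT livers (log2 fold change 1.40, SE 0.20, adjusted p = 0.0173; 2.64-fold). The call was lost without GR LKO replicate 1 (0.0594), GR LKO replicate 2 (0.0668) and WT replicate 2 (0.0557). At ZT20 Socs3 had 5.18, 3.89, 3.98 and 4.88 CPM and 11.5, 8.98 and 7.57 CPM (log2 fold change 1.07, adjusted p = 0.0748). Nfkbia at ZT16 had 27.0, 26.0, 24.2 and 23.2 CPM and 17.2, 17.6 and 15.2 CPM, lower in each GR LKO liver (log2 fold change -0.59, SE 0.09, adjusted p = 0.0203), and lost its call without GR LKO replicate 1 (0.0583), GR LKO replicate 2 (0.0598), GR LKO replicate 3 (0.0591) and WT replicate 2 (0.0631). Stat3 had log2 fold changes from -0.19 to -0.02 and Bcl3 from -0.25 to 0.46, without a call.

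Cebpd at ZT12 under ctrl. had 6.00, 3.80, 5.50 and 7.08 CPM in WT livers and 2.23, 3.11, 2.37 and 2.49 CPM in GR LKO livers. The groups were separate, though the values are low and the smallest count of Cebpd in any library was 4 (log2 fold change -1.13, SE 0.23, adjusted p = 0.0387). The call was lost without GR LKO replicate 1 (0.114), GR LKO replicate 2 (0.0591), GR LKO replicate 3 (0.0967), GR LKO replicate 4 (0.0994), WT replicate 1 (0.0901), WT replicate 3 (0.0937) and WT replicate 4 (0.0973). Cebpa at ZT12 had 153, 132, 198 and 159 CPM and 239, 282, 207 and 206 CPM (log2 fold change 0.54, adjusted p = 0.10). Cebpb had 72.0, 45.6, 52.4 and 79.4 CPM and 48.1, 42.8, 39.6 and 33.2 CPM at that time (log2 fold change -0.61, adjusted p = 0.174). Creb3l3 had log2 fold changes from -0.23 to 0.31 over the day, without a call.

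Of 22 acute phase genes tested under ctrl. at ZT12, 0 rose and 4 fell in GR LKO livers, where 93 rose and 145 fell of 11428 genes (2.08% called; list median -0.33, against 0.00 over all genes), with Saa4 (-0.72), ceruloplasmin Cp (-0.49) and Hp (-0.47) changing most. Of 5 CREB-H targets Apoa4 fell (log2 fold change -2.27, SE 0.21, adjusted p = 0.00122; list median -0.02). EdgeR called 0 of 22 JAK-STAT genes, 0 of 25 interleukin-1 and NF-kappaB genes and 0 of 12 bZIP relatives (medians 0.03, 0.10 and 0.02). Hepatocyte markers were lower for 3 of 7, Apoa1 (-0.65), Cps1 (-0.50) and Hnf4a (-0.48), with sums of 81529.6, 96988, 81131 and 90669 CPM in WT livers, against 68673, 65565, 72619.9 and 84145 CPM in GR LKO livers, led by Alb. Kupffer cell markers (0 of 8 called) summed to 76.4, 60.2, 51.0 and 79.0 CPM and 54.6, 78.3, 60.1 and 79.1 CPM, led by Clec4f. Among the other lists 0 markers were called. Endothelial markers averaged 81.8 and 91.5 CPM, led by Clec4g, stellate cell markers 112 and 132 CPM, led by Dcn, and bile duct markers 34.9 and 36.0 CPM, led by Spp1 with Epcam at 0. Neutrophil and monocyte markers averaged 2.33 and 2.74 CPM and lymphocyte markers 0.602 and 0.879 CPM. The part of the hepatocyte markers in the differences of the members was not tested.

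**Figure D3:**
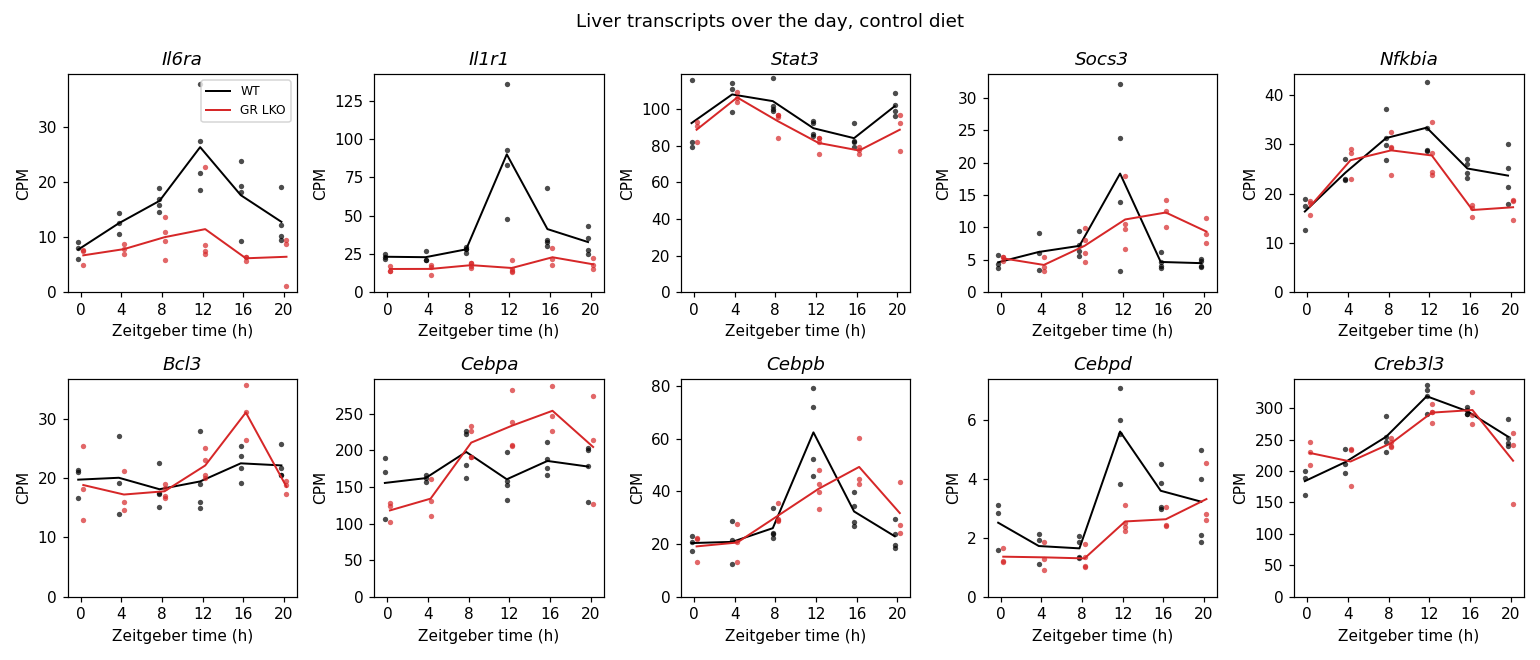
Level of each of the 10 genes (vertical axis, CPM) over zeitgeber time (horizontal axis, h) under ctrl.; points are libraries, lines join group means, black is WT and red is GR LKO, with 3 or 4 libraries per point in time. Socs3 averaged 12.3 CPM in GR LKO livers at ZT16, against 4.67 CPM in WT livers.

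Whether the genotype difference itself differed between the diets was tested as the ratio of the ratios at each time point. EdgeR called 0 of the 10 genes at each of the 6 times, so a gene called under cal. res. and not under ctrl. is not shown to differ between the diets. The background was 0 of 12455 (0%) at ZT0, with 0 members at an unadjusted p under 0.05, against 1266 of 12455 genes (10.2%), and 0 by DESeq2, which gave no adjusted p for 7 of them and called 154 of 3721 genes (4.14%) given one. It was 0 of 12362 (0%) at ZT4, with 2 members at an unadjusted p under 0.05, against 746 of 12362 genes (6.03%), and 0 by DESeq2, against 38 of 12841 genes (0.296%). At ZT8 it was 10 of 12345 genes tested (0.081%), with 5 members at an unadjusted p under 0.05, against 1043 of 12345 genes (8.45%), and 2 by DESeq2 (Il1r1 and Cebpb), against 119 of 11568 genes (1.03%). At ZT12 it was 123 of 12225 genes tested (1.01%), with 1 member at an unadjusted p under 0.05, against 1742 of 12225 genes (14.2%), and 1 by DESeq2 (Cebpa), against 477 of 11212 genes (4.25%). For ZT16 it was 29 of 12385 genes tested (0.234%), with 4 members at an unadjusted p under 0.05, against 1306 of 12385 genes (10.5%), and 1 by DESeq2 (Cebpa), against 186 of 12805 genes (1.45%). The ZT20 background was 0 of 12599 (0%), with 1 member at an unadjusted p under 0.05, against 878 of 12599 genes (6.97%), and 0 by DESeq2, against 48 of 13619 genes (0.352%). With any 1 library left out the edgeR count over all genes ran from 0 to 1 at ZT0, 0 to 17 at ZT4, 4 to 35 at ZT8, 49 to 148 at ZT12, 18 to 49 at ZT16 and 0 to 9 at ZT20.

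Cebpa came nearest at ZT12, with a log2 ratio of ratios of 0.80 (SE 0.20, adjusted p = 0.0839), and had -0.72 at ZT16 (adjusted p = 0.226). Cebpb at ZT8 had -0.99 (SE 0.19, adjusted p = 0.101). Without replicate 4 of the WT livers under ctrl., whose Cebpb level stood apart, it was -1.14 (adjusted p = 0.00919). Il1r1 at ZT8 had -1.59 (adjusted p = 0.208), which was -1.87 without replicate 1 (adjusted p = 0.0420) and -0.95 without replicate 2 (adjusted p = 0.0374) of the WT livers under cal. res. At ZT16 Il6ra had 0.80 (adjusted p = 0.437), and 1.01 (adjusted p = 0.0372) without replicate 3 of the ctrl. livers of WT mice. Nfkbia at ZT16 had 0.65 (adjusted p = 0.255), and 0.86 (adjusted p = 0.0408) without replicate 1 of the cal. res. livers of WT mice.

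Through the day, Il1r1 in WT livers under cal. res. averaged 27.5 ± 7.28 at ZT0, 56.5 ± 9.18 at ZT4, 84.1 ± 52.4 at ZT8, 179 ± 14.7 at ZT12, 22.9 ± 1.78 at ZT16 and 30.3 ± 4.66 at ZT20 (CPM, n = 3 each). It peaked at ZT12 and was lowest at ZT16, a 7.83-fold range, and in the order of the 6 times the steps from ZT12 to ZT8 and from ZT4 to ZT20 exceeded the sum of both SDs while the other neighbours did not differ beyond their spread. Without GR it averaged 18.1 ± 0.781 at ZT0, 25.6 ± 6.16 at ZT4, 17.6 ± 2.32 at ZT8, 17.8 ± 4.62 at ZT12, 13.5 ± 3.61 at ZT16 and 15.3 ± 0.544 at ZT20. That course was flatter, 1.89-fold from ZT4 to ZT16, with a step beyond the spread from ZT4 to ZT0. Under ctrl. WT livers averaged 23.2 ± 1.52 at ZT0, 22.9 ± 3.57 at ZT4, 28.0 ± 1.82 at ZT8, 90.0 ± 36.3 at ZT12, 41.2 ± 17.8 at ZT16 and 32.7 ± 8.32 at ZT20. The order was ZT12, ZT16, ZT20, ZT8, ZT0 and ZT4, with the step from ZT8 to ZT0 beyond the spread. The GR LKO livers under ctrl. averaged 15.2 ± 1.82 at ZT0, 15.2 ± 3.56 at ZT4, 17.7 ± 1.38 at ZT8, 15.8 ± 3.48 at ZT12, 22.8 ± 5.52 at ZT16 and 18.2 ± 3.55 at ZT20, with no neighbours apart.

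Il6ra in WT livers under cal. res. averaged 14.6 ± 4.01 at ZT0, 16.2 ± 1.04 at ZT4, 27.4 ± 1.90 at ZT8, 46.7 ± 6.10 at ZT12, 15.8 ± 1.70 at ZT16 and 19.5 ± 0.691 at ZT20 (CPM). From its ZT12 peak it stepped down to ZT8, to ZT20 and to ZT4 beyond the spread, and ZT4, ZT16 and ZT0 did not differ beyond it. After GR loss it averaged 9.33 ± 0.877 at ZT0, 9.38 ± 1.42 at ZT4, 10.7 ± 0.507 at ZT8, 19.6 ± 2.82 at ZT12, 9.55 ± 0.542 at ZT16 and 10.5 ± 2.43 at ZT20, and the step from ZT12 to ZT8 exceeded the spread. Under ctrl. the WT livers averaged 7.72 ± 1.53 at ZT0, 12.5 ± 1.83 at ZT4, 16.5 ± 1.84 at ZT8, 26.3 ± 8.45 at ZT12, 17.6 ± 6.05 at ZT16 and 12.7 ± 4.41 at ZT20. Again ZT12 was highest, and of the steps that from ZT4 to ZT0 exceeded the spread. For GR LKO livers under ctrl. the means were 6.68 ± 1.54 at ZT0, 7.80 ± 0.860 at ZT4, 9.96 ± 3.28 at ZT8, 11.4 ± 7.54 at ZT12, 6.14 ± 0.493 at ZT16 and 6.42 ± 4.60 at ZT20, with no neighbours apart.

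Stat3 had a peak over trough between 1.28-fold (WT, ctrl.) and 1.76-fold (WT, cal. res.) in the 4 sets of livers. Its means ranged from 73.3 CPM at ZT16 to 129 at ZT8 in WT livers under cal. res. and from 84.2 at ZT16 to 108 at ZT4 under ctrl. The ZT8 mean under cal. res. comes from 105, 176 and 105 CPM, with replicate 2 highest, and the step from ZT0 to ZT16 exceeded the spread there. Socs3 in WT livers under ctrl. averaged 4.61 ± 1.00 at ZT0, 6.21 ± 2.89 at ZT4, 7.15 ± 1.65 at ZT8, 18.3 ± 12.5 at ZT12, 4.67 ± 1.11 at ZT16 and 4.48 ± 0.645 at ZT20 (CPM), with ZT12 highest and no neighbours apart. In GR LKO livers under ctrl. it averaged 5.22 ± 0.373 at ZT0, 4.21 ± 1.11 at ZT4, 7.15 ± 2.29 at ZT8, 11.2 ± 4.75 at ZT12, 12.3 ± 2.07 at ZT16 and 9.36 ± 2.01 at ZT20, highest at ZT16 and again without neighbours apart. Under cal. res. Socs3 had 3.93 ± 1.22 at ZT0, 8.06 ± 3.82 at ZT4, 9.81 ± 9.67 at ZT8, 6.81 ± 1.08 at ZT12, 3.43 ± 0.530 at ZT16 and 2.74 ± 0.613 at ZT20 in WT livers, where only the step from ZT12 to ZT0 exceeded the spread. In GR LKO livers under cal. res. the 6 means stayed between 3.73 and 5.09 CPM.

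Nfkbia in WT livers under cal. res. averaged 17.9 ± 1.01 at ZT0, 27.7 ± 2.90 at ZT4, 33.0 ± 2.57 at ZT8, 39.3 ± 2.89 at ZT12, 12.1 ± 2.92 at ZT16 and 16 ± 2.23 at ZT20 (CPM), with steps beyond the spread from ZT12 to ZT8 and from ZT4 to ZT0. In GR LKO livers it averaged 17.0 ± 3.30 at ZT0, 22.1 ± 2.58 at ZT4, 22.8 ± 0.679 at ZT8, 28.5 ± 2.88 at ZT12, 12.5 ± 0.804 at ZT16 and 15.0 ± 1.19 at ZT20, with steps from ZT12 to ZT8 and from ZT20 to ZT16. Under ctrl. its means were 16.4 ± 3.29 at ZT0, 24.3 ± 2.36 at ZT4, 31.3 ± 4.37 at ZT8, 33.4 ± 6.58 at ZT12, 25.1 ± 1.73 at ZT16 and 23.7 ± 5.22 at ZT20 in WT livers. There the fall from ZT8 to ZT16, its next lower level, exceeded the spread. In GR LKO livers under ctrl. its means ran from 16.7 CPM at ZT16 to 28.8 at ZT8. Bcl3 was highest at ZT16 in all 4 sets of livers. Its peak over trough was 3.43-fold in WT and 2.63-fold in GR LKO livers under cal. res., and 1.24-fold and 1.8-fold under ctrl.

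Cebpa in WT livers under cal. res. averaged 37.5 ± 8.58 at ZT0, 36.6 ± 1.86 at ZT4, 45.7 ± 17.9 at ZT8, 17.4 ± 1.66 at ZT12, 42.6 ± 8.13 at ZT16 and 40.1 ± 12.0 at ZT20 (CPM). Its low at ZT12 was the single step beyond the spread. In GR LKO livers it averaged 31.1 ± 9.21 at ZT0, 50.3 ± 14.2 at ZT4, 68.1 ± 8.33 at ZT8, 43.8 ± 3.18 at ZT12, 35.1 ± 4.79 at ZT16 and 26.8 ± 10.7 at ZT20, with the step from ZT12 to ZT16 beyond the spread, so the low at ZT12 seen in WT livers was not there. Cebpb had 7.36 ± 0.708 at ZT0, 10.6 ± 2.61 at ZT4, 17.0 ± 0.680 at ZT8, 33.6 ± 7.56 at ZT12, 10.2 ± 2.66 at ZT16 and 9.51 ± 2.01 at ZT20 in WT livers under cal. res., with steps from ZT12 to ZT8 and from ZT8 to ZT4. Its means in GR LKO livers were 7.21 ± 1.36 at ZT0, 6.75 ± 0.616 at ZT4, 10.1 ± 1.21 at ZT8, 16.5 ± 0.667 at ZT12, 9.52 ± 3.0 at ZT16 and 6.32 ± 2.5 at ZT20, also highest at ZT12, with that step beyond the spread. Under ctrl. Cebpb peaked at ZT12 in WT livers (62.4 ± 15.9 CPM) and at ZT16 in GR LKO livers (49.2 ± 9.62 CPM). The means of Cebpa under ctrl. ran from 155 to 198 CPM in WT and from 118 to 254 in GR LKO livers, without neighbours apart. Cebpd had its highest mean at ZT12 in WT livers under both diets (2.78 ± 0.733 CPM under cal. res., 5.59 ± 1.36 under ctrl.). Creb3l3 was also highest at ZT12 in WT livers under cal. res. (258 ± 4.45 CPM) and under ctrl. (319 ± 20.7 CPM), and its peak over trough ranged from 1.38 to 1.73 over the 4 sets.

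A daily rhythm was sought in each set of livers with the JTK_CYCLE rank test at a period of 24 h. In WT livers under cal. res. it was called for 5 of the 10 genes, against 5179 of 18651 genes tested (27.8%): Cebpb (adjusted p = 0.00361, phase ZT12), Nfkbia (0.0173, ZT8), Socs3 (0.0217, ZT8), Creb3l3 (0.0346, ZT12) and Il6ra (0.0431, ZT12). For GR LKO livers under cal. res. it was 4 of 10, against 4840 of 18932 genes tested (25.6%): Cebpa (0.00119, ZT8), Creb3l3 (0.00304, ZT12), Cebpb (0.00535, ZT12) and Il1r1 (0.0238, ZT4). Under ctrl. WT livers had 5 of 10, against 6080 of 18874 genes tested (32.2%), all with a phase of ZT12: Creb3l3 (0.000114), Il6ra (0.000358), Cebpb (0.000773), Nfkbia (0.00127) and Il1r1 (0.00160). The GR LKO livers under ctrl. had 8 of 10, against 5279 of 18705 genes tested (28.2%), with Il6ra (0.436) and Il1r1 (0.640) the exceptions. Cebpa, Cebpb, Cebpd, Socs3 and Bcl3 had a phase of ZT16 there, Stat3 of ZT4, Nfkbia of ZT8 and Creb3l3 of ZT12.

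Several rhythm calls were lost or gained with 1 library left out, given here with the adjusted p without each. In WT livers under cal. res. Socs3 lost its call without replicate 2 at ZT8 (0.0625), replicate 2 at ZT20 (0.0632) and replicate 3 at ZT20 (0.0634). Il6ra lost it there without replicate 1 at ZT0 (0.119), replicate 2 at ZT0 (0.0630), replicate 1 at ZT8 (0.0927), replicate 2 at ZT8 (0.0927), replicate 3 at ZT8 (0.0927), replicate 1 at ZT12 (0.122), replicate 2 at ZT12 (0.123) and replicate 3 at ZT12 (0.124). Creb3l3 lost it without replicate 1 at ZT0 (0.0506), replicate 2 at ZT0 (0.0630), replicate 1 at ZT8 (0.0752), replicate 1 at ZT12 (0.0995), replicate 2 at ZT12 (0.10), replicate 3 at ZT12 (0.101), replicate 1 at ZT16 (0.0754) and replicate 3 at ZT16 (0.0771). After GR loss under cal. res. Il1r1 lost its call without replicate 2 at ZT4 (0.0672), replicate 3 at ZT4 (0.0637), replicate 2 at ZT16 (0.0682) and replicate 3 at ZT16 (0.0697). There Il6ra, at 0.0576 with all libraries, was called without replicate 1 at ZT4 (0.0425), replicate 1 at ZT16 (0.0430), replicate 2 at ZT16 (0.0420) and replicate 1 at ZT20 (0.0323), and Cebpd, at 0.103, without replicate 1 at ZT20 (0.0329). Under ctrl. in WT livers, Cebpd (0.0558) was called without replicate 1 at ZT4 (0.0497), replicate 2 at ZT16 (0.0463), replicate 4 at ZT16 (0.0471) and replicate 3 at ZT20 (0.0408). Stat3 (0.103) was called there without replicate 1 at ZT0 (0.0361) and replicate 2 at ZT0 (0.0307), and Socs3 (0.265) without replicate 1 at ZT12 (0.0476).

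In WT livers under cal. res. a cosinor in limma called 7, with Il1r1 and Cebpd added, against 6885 of 12624 genes (54.5%). An F test in edgeR for any difference between time points called 10 there, against 8123 of 12624 genes (64.3%), and JTK_CYCLE on the genes past the count filter called 5, against 5757 of 12624 genes (45.6%). In GR LKO livers under cal. res. the cosinor called 7 (Cebpd, Il6ra and Nfkbia added), against 6427 of 12743 genes (50.4%). The F test called 8 in that set (Stat3, Il6ra, Bcl3 and Nfkbia added), against 7713 of 12743 genes (60.5%), and JTK_CYCLE after the filter 6 (Il6ra and Nfkbia added), against 5484 of 12743 genes (43%). For WT livers under ctrl. the cosinor called 7 (Cebpd and Socs3 added), against 7038 of 12481 genes (56.4%), the F test 8 (Cebpd, Stat3 and Socs3 added), against 6244 of 12481 genes (50%), and JTK_CYCLE after the filter 6 (Cebpd added), against 6469 of 12481 genes (51.8%). After GR loss under ctrl. the same 8 were called in each, against 6399 of 12468 genes (51.3%), 5231 of 12468 genes (42%) and 5775 of 12468 genes (46.3%) in the same order. Stat3 was called by the F test in all 4 sets, with adjusted p = 0.0116 and 0.000220 in WT and GR LKO livers under cal. res. and 0.0284 and 0.00255 under ctrl.

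A rhythm called in 1 genotype and not in the other does not show that the rhythms differ, so the difference of the 24 h component between genotypes was tested with limma. Under cal. res. limma called 0 of the 10 genes, against 85 of 13041 genes tested (0.652%) (35 to 117 with any 1 library left out), with 3 at an unadjusted p under 0.05 (Il1r1, Cebpa and Socs3), against 1576 of 13041 genes (12.1%). Il1r1 came nearest (adjusted p = 0.0525), followed by Cebpa (0.0820). Il1r1 was called without any of these WT libraries: replicate 1 at ZT8 (0.0185), replicate 3 at ZT8 (0.0247), replicate 1 at ZT16 (0.0374), replicate 2 at ZT16 (0.0448), replicate 3 at ZT16 (0.0408) and replicate 1 at ZT20 (0.0483). Cebpa was called without WT replicate 3 at ZT8 (0.0183). Under ctrl. limma called 0 of the 10 genes, against 47 of 12834 genes tested (0.366%) (30 to 64 with any 1 library left out), with 4 at an unadjusted p under 0.05, against 1260 of 12834 genes (9.82%). An F test in edgeR of whether the genotype difference varied among the 6 times, without a sinusoidal shape, called Il1r1 (adjusted p = 0.000163) and Cebpa (0.0145) under cal. res., against 696 of 13041 genes (5.34%), and Il1r1 (0.00906) under ctrl., against 77 of 12834 genes (0.6%). DESeq2 was not run on rhythms.

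The genes with courses most like each member were taken over the 24 group means of the time series, centred within each diet, among 8872 genes (8873 for Cebpd), by Pearson's r as a description. For Il1r1 they were Cdip1 (0.96) and Tmc7 (0.92), and for Il6ra Arhgef26 (0.92) and Fbxo31 (0.90). Klhl21 and Ppp1r15a were nearest to Nfkbia (0.95 and 0.94), Slc19a2 and Zfand4 to Stat3 (0.89 and 0.88), and Psmb4 and Zcchc9 to Socs3 (0.82 and 0.81). For Bcl3 they were Ubxn4 (0.92) and Cdc34 (0.91). The C/EBP genes were nearest to Zfp467 (0.80) and Vamp1 (0.76) for Cebpa, Rhbdd2 (0.92) and Eif3h (0.92) for Cebpb and Ppia (0.89) and H3f3a (0.86) for Cebpd. Creb3l3 was nearest to Pdxk (0.94) and Zbtb14 (0.93). Among the members themselves, Il6ra and Il1r1 were most alike (0.82 over the 24 means), then Cebpb and Cebpd (0.79). All genes are compared over the same means, so these values are not independent of each other.

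Promoter sequence, credited to RefSeq on build GRCm38.p6, was held for 9 of the 10 genes in 11 windows of 300 bases, 250 before and 50 after the start. Searched on both strands were the STAT motif TTCNNNGAA (in 8.3% of all 32851 promoters), the C/EBP motif TTGCNNAA (10.8%), the glucocorticoid receptor hexamer TGTTCT (19%), the cAMP response element TGACGTCA (1.79%), its core TGACG (20.8%) and the NF-kappaB motif (8.46%). The core is contained in the full cAMP element. The windows of Il1r1, Il6ra, Nfkbia and Socs3 are printed: the receptors since they were called most often after GR loss among the 10 genes (5 and 4 of 12 comparisons), and Nfkbia and Socs3 since they are textbook targets of NF-kappaB and STAT3. Each run gives the 250 bases before the start, 5′ to 3′ on the gene's strand, with matches in capitals. The Il1r1 windows are at chr1:40224830-40225079, plus strand, and chr1:40266336-40266585, plus strand. In the former, capitals mark a C/EBP match 133 bases and a cAMP core 23 bases before the start, and in the latter an NF-kappaB match at 232 and a receptor hexamer at 131 bases. Il6ra is at chr3:89913197-89913446, minus strand, with a cAMP core at 236 bases. Nfkbia is at chr12:55492648-55492897, minus strand, with an NF-kappaB match at 29 bases, and Socs3 at chr11:117969367-117969616, minus strand, with a STAT match at 154 bases. The starts are those of RefSeq; those of Socs3 and of the latter Il1r1 window lie inside the gene spans given above.
Il1r1 window 1: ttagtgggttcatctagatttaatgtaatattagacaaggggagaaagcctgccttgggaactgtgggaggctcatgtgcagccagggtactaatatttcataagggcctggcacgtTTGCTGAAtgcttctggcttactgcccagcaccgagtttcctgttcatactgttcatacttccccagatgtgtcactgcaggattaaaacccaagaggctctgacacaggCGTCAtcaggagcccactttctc
Il1r1 window 2: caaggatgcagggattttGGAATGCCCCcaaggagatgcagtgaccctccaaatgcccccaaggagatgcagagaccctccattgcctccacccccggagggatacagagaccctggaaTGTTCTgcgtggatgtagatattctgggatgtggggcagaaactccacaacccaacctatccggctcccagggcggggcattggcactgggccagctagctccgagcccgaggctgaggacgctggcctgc
Il6ra: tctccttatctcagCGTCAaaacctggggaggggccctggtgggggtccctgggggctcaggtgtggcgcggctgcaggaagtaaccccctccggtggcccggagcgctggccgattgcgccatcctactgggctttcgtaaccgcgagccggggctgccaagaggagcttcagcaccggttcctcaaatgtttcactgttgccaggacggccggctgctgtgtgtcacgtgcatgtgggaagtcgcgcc
Nfkbia: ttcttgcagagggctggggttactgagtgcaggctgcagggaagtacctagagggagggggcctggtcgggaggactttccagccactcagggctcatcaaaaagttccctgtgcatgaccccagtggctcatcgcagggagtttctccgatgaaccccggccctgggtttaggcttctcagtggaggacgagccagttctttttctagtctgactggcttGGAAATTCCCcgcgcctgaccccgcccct
Socs3: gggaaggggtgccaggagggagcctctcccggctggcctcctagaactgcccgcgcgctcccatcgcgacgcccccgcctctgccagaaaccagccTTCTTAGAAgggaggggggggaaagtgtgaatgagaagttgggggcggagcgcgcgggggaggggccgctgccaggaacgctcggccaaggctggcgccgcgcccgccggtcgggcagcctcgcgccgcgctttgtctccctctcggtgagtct
Of the windows not printed, Stat3 held a receptor hexamer, Cebpb 3 cAMP cores, the Creb3l3 windows 2 receptor hexamers, 1 cAMP core and 1 NF-kappaB match, Bcl3 an NF-kappaB match just past the start, and Cebpa none of these letters. A match describes the letters and is not evidence of binding.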

How the data were processed

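The libraries were polyA RNA of mouse liver, 90 in all, in 4 count tables. The authors ran FastQC, MultiQC and Salmon on mm10 and deposited estimated counts per gene, which were rounded to whole numbers here. A deposited table of transformed values of the CORT experiment was not used. Of 27654 Ensembl identifiers, 27244 had a symbol, and the 410 without one held 0.107% of the counts. Comparisons were made within a table, except the interaction of genotype and diet and the WT livers of the time series set against each other by diet. In the interaction a diet term absorbs any overall shift between the tables, and in the WT livers nothing does. With R 4.3.3 and edgeR 4.0.16, genes past filterByExpr (minimum count 10) in the compared libraries were scaled by TMM and tested with the quasi-likelihood F test, with Benjamini-Hochberg adjustment over all genes tested and a threshold of 0.05. The log2 fold change is cal. res. over ctrl., CORT over ctrl., or GR LKO over WT. Rhythms used a reimplementation of JTK_CYCLE with exact null distributions (24 h, 6 phase offsets) on variance-stabilised values from DESeq2 1.42.0, and limma 3.58.1 for the difference between genotypes on sine and cosine terms. Both methods were tested on simulated data.

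Alternatives were DESeq2, RLE scaling, no filter, a block for the replicate number, 1 fit over all libraries of a diet, other rhythm tests, the WT livers of the time series for the diet effect, and each library left out in turn. Besides the members, the genes named were up to 3 called genes per direction and list with the largest fold change and at least 1 CPM, for the comparisons at ZT12, and for likeness 2 genes per member with a mean of at least 5 CPM. A gene of the JAK-STAT list that this rule picked counts in its list and is not reported here. Cebpd and Socs3 had low counts, and how far depth limits the precision of such genes was not tested. The members and lists (JAK-STAT, interleukin-1 and NF-kappaB, bZIP relatives, acute phase, CREB-H targets, and markers of hepatocytes, Kupffer cells, neutrophils and monocytes, endothelium, stellate cells, lymphocytes and bile ducts) were chosen with earlier results of these data known.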

Additional observations from a re-analysis of the deposited data

Results flagged for a closer look

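Among 84 groups of 4 libraries (14 genes by 6 groups), 7 held a library whose gap to its nearest neighbour took up an unusually large share of the group's range; chance gives about 1 in 20 such groups. Groups of 4 libraries exist in the ctrl. time series only. Cebpb at ZT8 in WT livers was 22.4, 24.0, 24.0 and 33.7 CPM, with replicate 4 high (share of the range 0.857), and in GR LKO livers 28.8, 35.6, 29.4 and 29.0 CPM, with replicate 2 high (0.908). Stat3 at ZT8 in GR LKO livers was 96.8, 97.0, 95.6 and 84.5 CPM, with replicate 4 low (0.895). Il6ra at ZT12 in GR LKO livers was 8.61, 7.44, 6.95 and 22.7 CPM, with replicate 4 high (0.895). Il1r1 at ZT16 in WT livers was 32.7, 30.4, 67.8 and 34.0 CPM, with replicate 3 high (0.904). Fkbp5 at ZT20 in WT livers was 16.2, 16.4, 15.1 and 24.4 CPM, with replicate 4 high (0.865). Per1 at ZT12 in GR LKO livers was 48.8, 28.6, 31.2 and 30.0 CPM, with replicate 1 high (0.873).

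The genotype difference of Tsc22d3, a GR-induced gene, differed between the diets at ZT16 (log2 ratio of ratios 0.94, SE 0.13, adjusted p = 0.0141 by edgeR). Its log2 fold change was -0.28 under cal. res. and -1.23 under ctrl. By edgeR the interaction tests of the 10 members called 0 genes. DESeq2 called Il1r1 and Cebpb at ZT8 and Cebpa at ZT12 and ZT16.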

How the results depend on the processing

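Of 2603 member log2 fold changes recomputed under alternatives, 2 with a call changed sign: the diet effect on Cebpb (-0.90) and Cebpd (-1.02), when the WT livers of the time series at ZT12 stood in for the diet experiment. A further 140, called in neither fit, changed sign: 133 with a library left out, 6 with the replicate block and 1, the diet effect on Socs3 (0.78 and -1.45), with the WT livers of the time series. Diet and library batch cannot be told apart in that alternative, and the cause was not tested. RLE scaling changed no member call. Calls of Il1r1, Il6ra, Cebpa and Cebpb under cal. res. at ZT12, Il1r1 under ctrl. at ZT12 and Il6ra under cal. res. at ZT8 held in each alternative run. So did the CORT calls of Il1r1, Stat3, Nfkbia, Cebpb and Cebpd, and the diet calls of Il6ra, Stat3, Cebpa and Creb3l3. DESeq2 called 2 members under cal. res. at ZT4, 2 at ZT16 and 2 at ZT20, and under ctrl. 1 at ZT0, 5 at ZT12, 5 at ZT16 and 2 at ZT20. For the interaction it called 2 at ZT8, 1 at ZT12 and 1 at ZT16. A fit over all libraries of a diet called 1 member under cal. res. at ZT0, 2 at ZT4 and 2 at ZT20, and 0 under ctrl. at ZT8; under cal. res. at ZT8 it called 4, with Stat3 gained and Cebpb lost. Without the filter there was 1 member at ZT4 and 2 at ZT20 under cal. res., and 1 gene against 0 over all genes for the interaction at ZT0. For rhythms, an edgeR F test over time points called 10 members in WT and 8 in GR LKO livers under cal. res. and 8 in WT livers under ctrl., a cosinor in limma called 7 in each of these sets, JTK_CYCLE after the count filter called 5, 6 and 6, and the edgeR F test of genotype by time point called 2 under cal. res. and 1 under ctrl. Blocking on the replicate number left 7 members for the diet (Il1r1 lost), under cal. res. 1 at ZT8 (Nfkbia, Il1r1 and Cebpb lost), 4 at ZT12 (Nfkbia lost) and 0 at ZT16 (Il6ra lost), and under ctrl. 0 at ZT8 (Il1r1 lost), 1 at ZT12 (Cebpd lost) and 0 at ZT16 (Nfkbia, Il6ra and Socs3 lost). It changed no other call of a member. Over all genes it called 5686 against 6155 for the diet, 534 against 935 with CORT, for GR loss under cal. res. 9 against 61 at ZT0, 13 against 83 at ZT4, 151 against 308 at ZT8, 889 against 1795 at ZT12, 287 against 541 at ZT16 and 76 against 178 at ZT20, under ctrl. 9 against 63 at ZT0, 1 against 23 at ZT4, 36 against 166 at ZT8, 101 against 238 at ZT12, 32 against 232 at ZT16 and 3 against 50 at ZT20, and for the interaction 6 against 10 at ZT8, 5 against 123 at ZT12 and 3 against 29 at ZT16. DESeq2 over all genes called, for GR loss under cal. res., 439 against 61 at ZT0, 436 against 83 at ZT4, 690 against 308 at ZT8, 929 against 541 at ZT16 and 663 against 178 at ZT20, under ctrl. 411 against 63 at ZT0, 191 against 23 at ZT4, 362 against 166 at ZT8, 570 against 238 at ZT12, 634 against 232 at ZT16 and 298 against 50 at ZT20, and for the interaction 154 against 0 at ZT0, 38 against 0 at ZT4, 119 against 10 at ZT8, 477 against 123 at ZT12, 186 against 29 at ZT16 and 48 against 0 at ZT20. The fit over all libraries of a diet called, under cal. res., 169 against 61 at ZT0, 358 against 83 at ZT4, 724 against 308 at ZT8, 2805 against 1795 at ZT12, 1025 against 541 at ZT16 and 1127 against 178 at ZT20, and under ctrl. 630 against 63 at ZT0, 48 against 23 at ZT4, 36 against 166 at ZT8, 537 against 238 at ZT12, 469 against 232 at ZT16 and 387 against 50 at ZT20. The edgeR F test over time points called 8123 against 5179 genes in WT and 7713 against 4840 in GR LKO livers under cal. res., and that of genotype by time point 696 against 85 under cal. res. and 77 against 47 under ctrl. Replicate numbers did not pair: in 14 comparisons 0 met the pairing rule, and correlations of residuals with the same number ran from -0.123 to 0.115. Leaving out 1 library at a time gave 7 to 9 members for the diet (4512 to 6471 of all genes) and 5 to 7 for CORT (206 to 1008). For GR loss under cal. res. it gave 1 to 3 at ZT8 (56 to 315), 4 to 5 at ZT12 (899 to 1329), 0 to 1 at ZT16 (234 to 346) and 0 to 2 at ZT20 (16 to 194), and under ctrl. 1 to 2 at ZT12 (137 to 199) and 0 to 3 at ZT16 (84 to 183). The interaction had 0 to 1 at ZT8 (4 to 35) and 0 to 1 at ZT16 (18 to 49), the rhythm under cal. res. 3 to 5 in WT livers (4410 to 5100) and 3 to 6 after GR loss (4137 to 4926), the rhythm under ctrl. 5 to 6 in WT livers (5612 to 6071) and 8 after GR loss (4670 to 5365), and the rhythm difference 0 to 2 under cal. res. (35 to 117). The cause of these changes was not tested. Groups of 3 or 4 libraries limit the power of each comparison. At this depth Cebpd reached counts as low as 4, and small differences of low genes may have been missed, which was not tested.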
